A study of Mus musculus with 8 samples.

Results

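The genes described here are 10 genes of the integrated stress response, the transcription factor gene Atf4 and 9 genes that respond to it or to the same stresses: Ddit3, Trib3, Asns, Chac1, Sesn2, Ddit4, Vldlr, Stc2 and Aldh18a1. They were taken by symbol from the deposited count table, which held all 10 of them among 17823 genes. The libraries come from cultured macrophages, derived with 20 ng of M-CSF over 7 days from C57BL/6 mouse bone marrow, in which the fluorescent protein tdT (tdTomato) reports on Il19, a cytokine gene of the Il10 family. All cells had received 1 µg/ml of LPS, the Toll-like receptor 4 ligand of the bacterial outer membrane, so both groups are activated cells and no untreated group was analysed here. The groups are 4 tdT-positive and 4 tdT-negative libraries, numbered 1 to 4 in both. The sources used here do not give the age of the mice, the construction of the reporter or the way in which positive and negative cells were separated.

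The integrated stress response begins when kinases that sense unfolded protein, lack of amino acids, double-stranded RNA or lack of haem phosphorylate the translation factor eIF2alpha. General translation then slows, while the Atf4 messenger, whose upstream reading frames normally keep it silent, is translated more. ATF4 protein pairs with C/EBP and other bZIP proteins and switches on genes for amino acid synthesis, transport and redox balance, and under lasting stress also CHOP, the product of Ddit3. In macrophages, Toll-like receptor signalling is known to change the output of this pathway. Since Atf4 is controlled largely at translation, its transcript level does not measure the activity of its protein.

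The libraries held between 49850537 and 58516454 counts. Il19, the reporter's own gene, averaged 185 ± 36.6 CPM (counts scaled by library size, with trimmed mean of M values, TMM, factors; SD, n = 4) with tdT and 11.98 ± 3.45 CPM without it, so every library matched its label. The macrophage markers Adgre1 and Csf1r averaged 3596 and 2077 CPM with tdT and 3973 and 1946 CPM without it. Of markers of other cells, 10 genes of stromal cells and fibroblasts summed to between 76.1 and 207 CPM with tdT and between 347 and 3012 CPM without it, and all 9 that could be tested fell in tdT-positive cells (blocked edgeR test, as below). The highest sum was that of tdT-negative replicate 4, and the next was 724 CPM. The same library held 1523 CPM of 8 osteoclast and cell fusion markers, where the rest of its group had 111 to 195 CPM and the tdT-positive group 100.03 to 143 CPM. Markers of neutrophils and their precursors summed to between 3.22 and 6.86 CPM in tdT-positive libraries and to between 14.5 and 279 CPM in tdT-negative ones. Of the 5 that could be tested 4 fell (blocked edgeR test). Camp overlapped between the groups, was higher with tdT in number 4 and did not pass (adjusted p = 0.0691). Elane and Prtn3 had no count in tdT-positive libraries, but Elane had only 3, 1, 0 and 1 counts in tdT-negative ones. Monocyte markers summed to between 98.1 and 173 CPM and between 213 and 395 CPM.

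ATF4 acts with C/EBP proteins through a composite DNA element known from several of these genes, and its sites are shown because it is the sequence through which ATF4 is known to act. All 10 genes matched RefSeq promoter windows (GRCm38.p6, the mm10 assembly), with 11 windows of 300 bases, 250 before and 50 after each start site. The core TGATGNAA was searched on both strands, and 4 of the 11 windows held it, against 3.97% of all 32851 windows. The genes are Trib3, Asns, Chac1 and Vldlr, and Chac1 and Vldlr share the same letters, TTGCATCA. Positions are those of the first printed letter of the core, counted from the start site: 15 in Trib3, -23 in Asns, -193 in Chac1 and -200 in the second of 2 windows of Vldlr. Each site is shown with 11 bases on either side, on the strand of the gene, with the core or its reverse complement in capitals.
Trib3 (chr2:152344028-152344057, minus strand, in an exon): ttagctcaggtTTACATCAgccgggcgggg
Asns (chr6:7693214-7693243, minus strand, overlapping an exon): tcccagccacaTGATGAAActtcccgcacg
Chac1 (chr2:119351038-119351067, plus strand, outside exons): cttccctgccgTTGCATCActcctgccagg
Vldlr (chr19:27216809-27216838, plus strand, in an exon): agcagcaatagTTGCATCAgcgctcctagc
Exons are those of GENCODE M21.

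The longer stretches before the start sites of Chac1, Vldlr and Stc2 are given for the same comparison, since Vldlr and Stc2 are the members that passed the test below. The first holds the core in capitals, and the other 2 do not hold its letters.
Chac1 (chr2:119350992-119351228, plus strand): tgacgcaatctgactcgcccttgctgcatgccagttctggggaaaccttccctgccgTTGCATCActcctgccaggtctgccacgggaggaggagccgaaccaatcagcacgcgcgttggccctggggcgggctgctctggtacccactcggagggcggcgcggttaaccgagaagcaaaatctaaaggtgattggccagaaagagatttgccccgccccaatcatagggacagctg
Vldlr, first window (chr19:27216234-27216483, plus strand): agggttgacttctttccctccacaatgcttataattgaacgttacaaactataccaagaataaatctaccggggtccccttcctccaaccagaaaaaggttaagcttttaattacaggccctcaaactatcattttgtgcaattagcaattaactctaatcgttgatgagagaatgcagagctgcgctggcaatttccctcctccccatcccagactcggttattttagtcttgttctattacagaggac
Stc2 (chr11:31370075-31370311, minus strand): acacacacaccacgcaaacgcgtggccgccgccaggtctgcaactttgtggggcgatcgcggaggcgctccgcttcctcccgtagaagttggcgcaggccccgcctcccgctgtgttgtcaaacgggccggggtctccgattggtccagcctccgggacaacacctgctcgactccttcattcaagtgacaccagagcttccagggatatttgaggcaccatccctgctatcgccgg
The full element TGATGCAAT (0.192% of all windows), the cAMP element TGACGTCA (1.79%), the NF-kB letters GGGANTTCC (1.68%) and the ER stress element (0.119%) were in none of the 11 windows. The E-box CACGTG, which reads the same on both strands, was in the window of Aldh18a1 (7.15% of all windows), and the hypoxia letters ACGTGC in those of Asns and Ddit4 (5.91%). These matches describe the letters of the windows only, and no binding was measured.

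Between tdT-positive and tdT-negative macrophages, Atf4 and Ddit3, the transcription factor genes at the centre of the pathway, differed by less than the spread between replicates. The scarce transcripts Vldlr and Stc2 were lower in tdT-positive cells. Both met the low-count filter only through the tdT-negative group, in which they were higher, so their falls are given as description. Asns was lower in tdT-positive cells in all 4 numbers by a smaller margin. Chac1 and Aldh18a1 stood out in a single library, tdT-negative replicate 4. Without the replicate number in the model, no member passed an adjusted p under 0.05 (edgeR quasi-likelihood test, Benjamini-Hochberg), where 0.0238% of the 12610 genes tested did. The same count was 0 with DESeq2, which gave Vldlr no adjusted p, and with limma voom, and 2 members had an unadjusted p under 0.05 in edgeR. The numbers paired the libraries, and in the fit that takes them as a block 2 members, Vldlr and Stc2, fell and none rose. In bulk RNA, fewer cells that express a gene and less RNA per cell cannot be told apart. Across all genes tested, 7.81% fell and 8.03% rose in that fit. The median log2 fold change (tdT positive over tdT negative) was -0.35 over the 10 members and 0.01 over all genes tested. P-values of the blocked fit measure the spread between these 4 pairs of libraries, and those without the block the spread within each group.

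**Figure D1:**
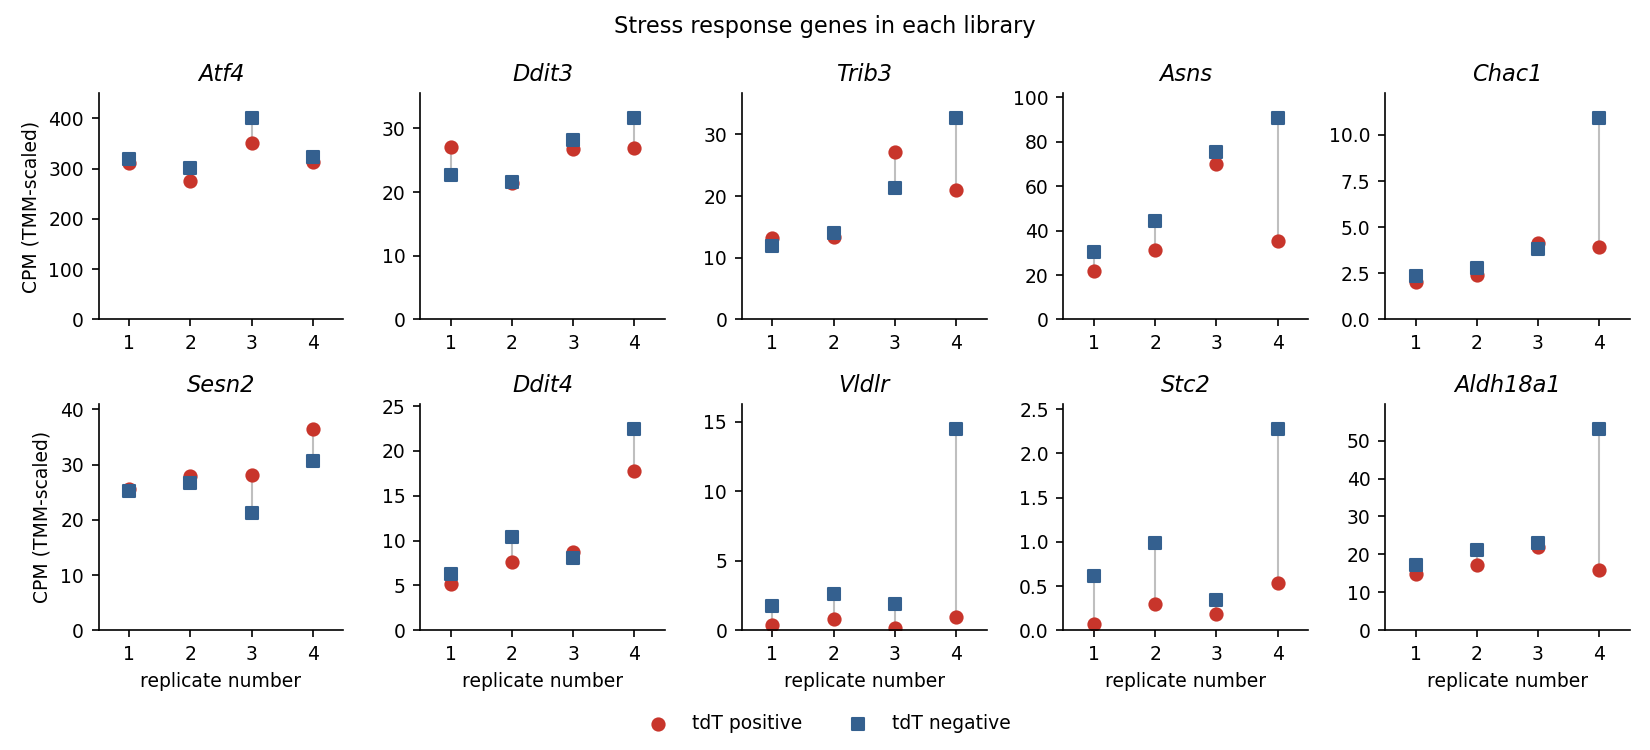
Level in CPM (y axes, linear from 0) of the 10 members in each library, by replicate number (x axes), with tdT-positive libraries as red circles, tdT-negative ones as blue squares and a grey line joining the libraries of a number. Vldlr is the only member whose groups do not overlap, and tdT-negative replicate 4 is the highest library for 8 of the 10 members.

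Per kilobase of transcript, the members spanned a wide range of abundance. Atf4 was highest, at 188 ± 21.7 RPKM (counts scaled by library size and by kilobases of transcript, SD over all 8 libraries), 6.33 times the next gene, and its lowest library lay above every library of every other member. Ddit3, at 29.6 ± 4.11 RPKM, and Asns, at 25.8 ± 13.2 RPKM, followed and overlapped, with Ddit3 above Asns in 5 of 8 libraries. Asns exceeded Sesn2 (10.45 ± 1.68 RPKM) in 8 of 8 libraries. Sesn2 and Trib3 (9.41 ± 3.70 RPKM) also overlapped, as did Aldh18a1 (6.55 ± 3.55 RPKM) and Ddit4 (6.42 ± 3.61 RPKM). Chac1 stood at 2.57 ± 1.85 RPKM, below Ddit4 in 8 of 8 libraries, and its lowest library was above every library of Stc2. Stc2 (0.371 ± 0.397 RPKM) and Vldlr (0.347 ± 0.573 RPKM) were at the bottom and not separated, with Stc2 above Vldlr in 5 of 8 libraries. The members that passed the test were the 2 least abundant.

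Atf4 encodes the transcription factor that carries the response (chr15:80255184-80257545, plus strand). Replicates 1 to 4 had 311, 275, 351 and 313 CPM with tdT and 319, 301, 401 and 324 CPM without it. The groups overlapped, and within each number the tdT-positive library was the lower by a small margin, with the tdT-negative level 1.03 to 1.14 times the tdT-positive one. The log2 fold change was -0.10 with the block (SE 0.06, edgeR adjusted p = 0.297, unadjusted 95% interval -0.25 to 0.04). A change of Atf4 mRNA as large as that of Vldlr or Stc2 lies outside this interval.

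Ddit3 encodes CHOP, a bZIP factor induced downstream of ATF4 (chr10:127290793-127296291, plus strand). The locus overlaps Mbd6 and Mars1 in RefSeq, so its counts are uncertain without a stated strand setting. Its level lay between 21.5 and 27.1 CPM in tdT-positive and between 21.6 and 31.7 CPM in tdT-negative libraries. The direction differed between numbers, lower in tdT-positive cells in 3 and higher in 1, and the log2 fold change was -0.02 (SE 0.09, edgeR adjusted p = 0.907 with the block, interval -0.22 to 0.19). This estimate was 0.07 without number 4.

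Trib3, Sesn2 and Ddit4 encode proteins that restrain growth signalling: a pseudokinase that binds Akt and ATF4, a sestrin that senses leucine, and an inhibitor of the mTORC1 kinase. Trib3 (chr2:152337425-152344060) was at 13.3, 13.3, 27.2 and 21.0 CPM in tdT-positive replicates 1 to 4 and at 11.9, 14.0, 21.2 and 32.7 CPM in their tdT-negative counterparts. It varied by number, with numbers 3 and 4 above numbers 1 and 2 in both groups, more than by reporter. Its log2 fold change was -0.05 (SE 0.15, edgeR adjusted p = 0.832 with the block), and 0.16 without number 4. Sesn2 (chr4:132492804-132510456) was the member with the opposite direction. It was at 25.7, 28.0, 28.1 and 36.5 CPM in tdT-positive and at 25.1, 26.7, 21.2 and 30.6 CPM in tdT-negative libraries, higher in tdT-positive cells in 4 of 4 numbers. The groups overlapped and Sesn2 did not pass (log2 fold change 0.19, SE 0.08, edgeR adjusted p = 0.155 with the block). Ddit4 (chr10:59949675-59951770) was highest in number 4 in both groups, at 17.7 and 22.5 CPM in the tdT-positive and tdT-negative library. The other libraries had 5.20 to 8.74 CPM and 6.24 to 10.4 CPM, so that number 4 stood apart for Ddit4 irrespective of the reporter. Its log2 fold change was -0.24 (SE 0.11, edgeR adjusted p = 0.167 with the block).

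Chac1 encodes an enzyme that degrades glutathione (chr2:119351242-119354326, plus strand). The tdT-positive libraries held 2.03, 2.39, 4.13 and 3.91 CPM and the tdT-negative ones 2.35, 2.77, 3.84 and 10.9 CPM. Apart from tdT-negative replicate 4, which held 2.85 times the next highest library of its group, the groups lay within the same range. The log2 fold change of -0.47 (SE 0.26, edgeR adjusted p = 0.258 with the block) was -0.08 without number 4 (adjusted p = 0.712). The estimate was -0.68 with no block, and 0.06 when only tdT-negative replicate 4 was left out.

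Asns encodes the enzyme that makes asparagine from aspartate (chr6:7675165-7693209, minus strand). It was at 21.7, 31.0, 69.7 and 35.1 CPM in tdT-positive replicates 1 to 4 and at 30.1, 44.2, 75.4 and 90.7 CPM in their tdT-negative counterparts. Within each number the tdT-negative library was the higher, by 1.39, 1.43, 1.08 and 2.59 times, while the libraries of a group differed more than that, by up to 3.22 times among the tdT-positive ones. With the block the log2 fold change was -0.62 (SE 0.18, edgeR adjusted p = 0.0619), which did not pass. Without number 4 the difference was smaller, -0.35, and passed (SE 0.09, adjusted p = 0.0276), as it did with number 4 but no filter on low counts (-0.61, adjusted p = 0.0313). Vldlr, Stc2 and Asns were then the members that fell, 3 of 10, where 10.4% of the 12537 genes tested without number 4 fell. The highest tdT-positive library for Asns was replicate 3, which was also the highest of its group for 5 of the 10 members. In that library 13.2% of counts came from Rn45s and Lars2, against 0.327% to 0.769% in the others. Removing these counts left the blocked estimate of Asns at -0.62 and the members that fell at 2. This removal could change little, because the TMM factors already trim extreme genes, and it does not test the quality of that library.

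Aldh18a1 encodes the enzyme that makes the precursor of proline and ornithine from glutamate (chr19:40550257-40588463, minus strand, overlapping Gm15801). It was at 14.8, 17.2, 22.0 and 16.0 CPM in tdT-positive and at 17.2, 21.2, 23.1 and 53.2 CPM in tdT-negative libraries. Like Chac1, it was set apart by tdT-negative replicate 4, at 2.30 times the next highest library of the group. The tdT-positive library was the lower in 4 of 4 numbers, and the gene did not pass (log2 fold change -0.58, SE 0.26, edgeR adjusted p = 0.175 with the block). The estimate was -0.18 without number 4.

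Vldlr encodes a receptor of the LDL receptor family that takes up triglyceride-rich lipoproteins (chr19:27216480-27254231, plus strand, overlapping Gm35438). It had 19, 46, 8 and 59 counts in tdT-positive replicates 1 to 4 and 94, 156, 106 and 858 counts in the tdT-negative ones, or 0.364, 0.792, 0.186 and 0.964 CPM against 1.75, 2.62, 1.91 and 14.5 CPM. All 4 tdT-negative libraries lay above all 4 tdT-positive ones, a separation that 5.92% of genes tested showed in this direction. Vldlr met the low-count filter only through the tdT-negative group, so this separation is given as description. The tdT-negative level was 4.802, 3.31, 10.3 and 15.04 times the tdT-positive one in numbers 1 to 4. Vldlr fell by 2.81 on the log2 scale with the block (SE 0.38, edgeR adjusted p = 0.00941) and by 2.24 without number 4 (adjusted p = 0.00167), but leaving out number 3 ended the call (-2.71, adjusted p = 0.0521). Without the block its log2 fold change was -3.15 and the adjusted p 0.104, or -1.84 with an adjusted p of 0.0972 without tdT-negative replicate 4.

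Stc2 encodes stanniocalcin 2, a secreted glycoprotein (chr11:31359441-31370061, minus strand). It had 4, 17, 8 and 33 counts in the tdT-positive libraries and 33, 59, 19 and 135 in the tdT-negative ones, or 0.0767, 0.293, 0.186 and 0.539 CPM against 0.614, 0.991, 0.342 and 2.28 CPM. The ranges overlapped between groups, but within each number the tdT-negative library was the higher, by 8.01, 3.39, 1.84 and 4.23 times. Stc2 fell by 1.91 on the log2 scale with the block (SE 0.32, edgeR adjusted p = 0.0128) and by 1.81 without number 4 (adjusted p = 0.0161), but leaving out number 2 ended the call (-1.99, adjusted p = 0.0675). The fit without the block did not call it (-1.92, adjusted p = 0.217). In the tdT-positive group 2 libraries for Stc2 and 3 for Vldlr reached the filter's level of 0.178 CPM (by library totals), whereas all 4 tdT-negative ones did, so both genes entered the test through the group in which they were higher. The other 8 members had more than 100 counts in every library.

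**Figure D2:**
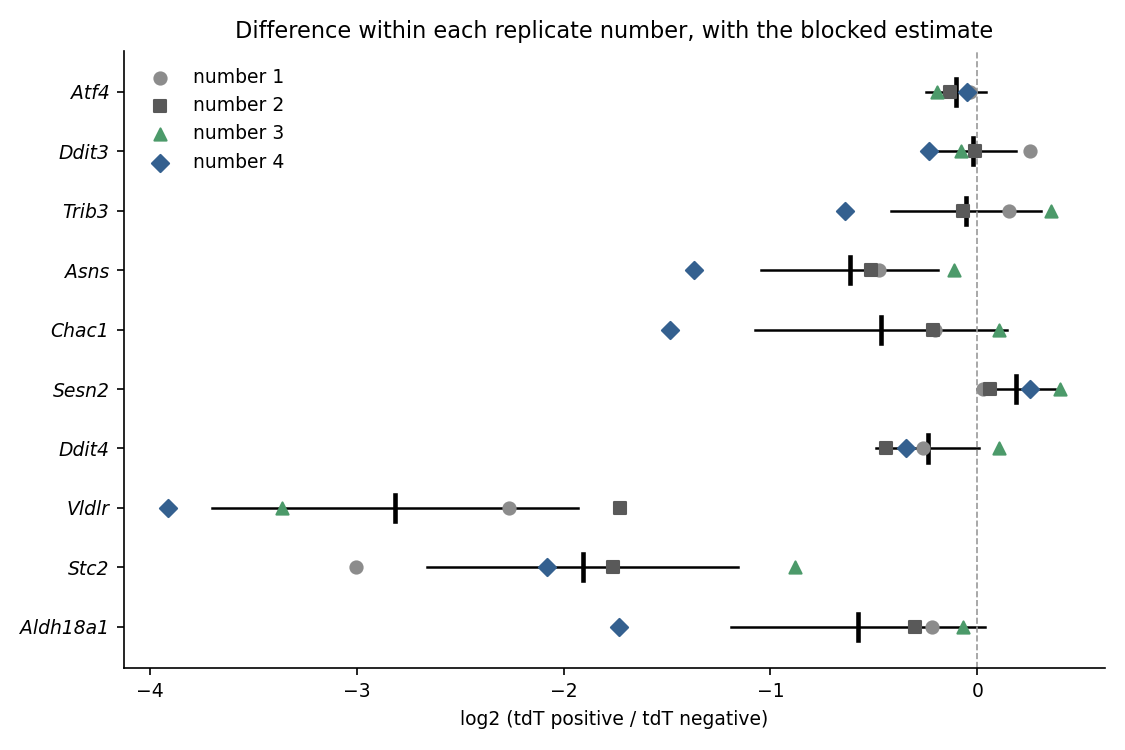
Log2 ratio of the tdT-positive to the tdT-negative library (x axis) of each member (y axis) within replicate numbers 1 to 4 (symbols), with the blocked edgeR estimate (thick bar) and its unadjusted 95% interval (line). Vldlr and Stc2 lie left of 0 in every number, Sesn2 lies right of 0 in every number, and number 4 lies farthest left for Ddit3, Trib3, Asns, Chac1, Vldlr and Aldh18a1.

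Taken by their median, the members differed most in number 4, though Atf4, Ddit3, Sesn2, Ddit4 and Stc2 each had their largest difference in another number. tdT-negative replicate 4 was the highest tdT-negative library for 9 of 10 members, Atf4 being the exception, a share that was not counted over all genes. It was over 1.5 times the next for 6 members, against 11.2% of all genes tested. These 6 are Trib3, Chac1, Ddit4, Vldlr, Stc2 and Aldh18a1. In number 4, 6 members were over 1.5 times lower in the tdT-positive library, Trib3, Asns, Chac1, Vldlr, Stc2 and Aldh18a1, where 12.9% of all genes tested were. In each of numbers 1, 2 and 3 the count was 2, Vldlr and Stc2, against 6.59%, 7.29% and 11.3% of all genes. The median log2 difference of the members was -0.21, -0.26 and -0.07 in numbers 1, 2 and 3 and -1.01 in number 4. Over all numbers, 5 members were lower in tdT-positive cells in 4 of 4 numbers, Atf4, Asns, Vldlr, Stc2 and Aldh18a1, against 19.6% of all genes tested.

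The levels of stromal and osteoclast markers were, like several members, most unequal in number 4. The summed stromal markers were 3.10, 3.503, 9.43 and 19.2 times as high in the tdT-negative as in the tdT-positive library of numbers 1 to 4, beside ratios of 4.802, 3.31, 10.3 and 15.04 for Vldlr. For Stc2 the ratio was highest in number 1, where that of the stromal sum was lowest. The summed osteoclast and fusion markers had ratios of 1.01, 1.79, 1.42 and 10.6, and Asns, Chac1 and Aldh18a1 likewise had their highest ratio in number 4, at 2.59, 2.80 and 3.33. Neutrophil markers ran the other way, with ratios of 43.6, 65.6, 53.6 and 2.11, lowest in number 4. Monocyte markers had ratios of 1.77, 2.35, 2.18 and 1.80, and macrophage markers between 0.843 and 1.15. The part of other cell types in the differences of these members was not tested.

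**Figure D3:**
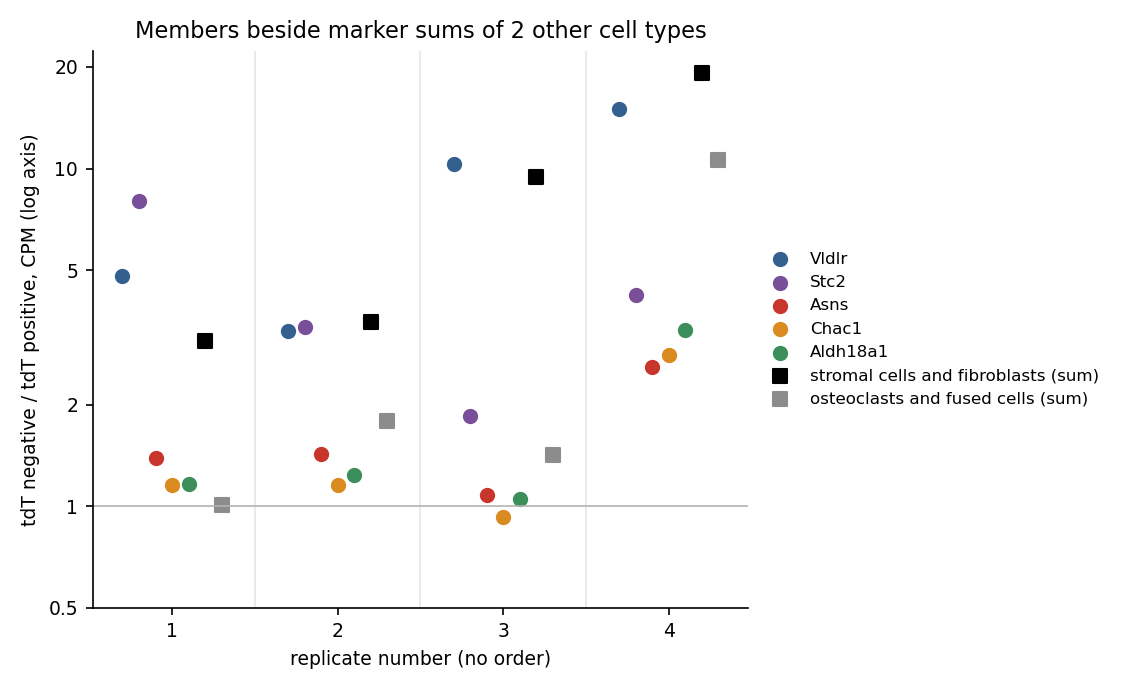
Ratio of the tdT-negative to the tdT-positive library in CPM (y axis, logarithmic) within each replicate number (x axis, no order) for 5 members (circles) and for the summed markers of stromal cells and of osteoclasts (squares). The ratios of Vldlr (3.31 to 15.04) and of the stromal sum (3.10 to 19.2) are both highest in number 4, and Asns, Chac1 and Aldh18a1 exceed 2 only there.

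Genes around these members in the pathway were examined in 7 lists with 86 genes, of which 83 could be tested. Without the block none passed, 15 had an unadjusted p under 0.05 in edgeR, and 6 passed with the DESeq2 Wald test. With the block 6 of 83 rose and 6 fell, no larger a share than over all genes tested in that fit, of which 8.03% rose and 7.81% fell. These shares of all genes are the background for the counts of each list below. The replicate numbers weigh on these calls: of the 12 genes, 5 passed without number 1, 1 without number 2, 1 without number 3, and all 12 without number 4. Calls over all genes moved likewise, from 1013 that rose and 985 that fell with all numbers. They were 419 and 604 without number 1, 94 and 253 without number 2, 229 and 126 without number 3, and 1231 and 1304 without number 4. Bcl2l11 was the gene that passed without each number in turn.

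Upstream of ATF4, 1 gene passed with the block. Of 7 genes for eIF2alpha, its kinases and its phosphatase subunits, only Eif2s1, which encodes eIF2alpha itself, passed. It fell by 0.28 on the log2 scale (SE 0.05, edgeR adjusted p = 0.0190 with the block), from 113 ± 4.63 CPM in tdT-negative to 92.8 ± 3.08 CPM in tdT-positive libraries. The groups did not overlap, a separation that 5.92% of genes tested showed in this direction. Eif2s1 did not pass without the block (edgeR adjusted p = 0.0890). With the block and 1 number left out, it passed only without number 4. The median log2 fold change of this list was 0.10. Among 8 bZIP partners and co-regulators, Jun, an AP-1 subunit gene, rose by 0.29 (SE 0.07, adjusted p = 0.0364), from 74.7 ± 7.72 to 91.7 ± 11.8 CPM, and the other 7 did not pass. The call on Jun was lost when libraries were scaled by totals (adjusted p = 0.0554).

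Amino acid synthesis enzymes were the list with the lowest median. Of 12 tested, 3 fell and none rose, where 7.81% of all genes fell, and the median log2 fold change was -0.64. Phgdh, which encodes the entry enzyme of serine synthesis, averaged 0.386 ± 0.152 CPM with tdT and 3.43 ± 3.99 CPM without it (log2 fold change -2.70, SE 0.41, edgeR adjusted p = 0.0112 with the block). Psat1, the next enzyme of that pathway, was at 19.3 ± 2.54 and 35.0 ± 17.1 CPM (-0.77, SE 0.15, adjusted p = 0.0190). Cth, which makes cysteine from cystathionine, was at 0.122 ± 0.0341 and 1.59 ± 2.28 CPM (-3.07, SE 0.62, adjusted p = 0.0204). Cth had 4 to 10 counts in the tdT-positive libraries, all below the filter's level, so it entered the test through the tdT-negative group alone. For all 3 the groups did not overlap, which 5.92% of genes tested also showed in this direction. In each, tdT-negative replicate 4 was the highest library, with 9.36 CPM of Phgdh, 60.6 CPM of Psat1 and 8.17 times the next library for Cth. Without that library the tdT-negative means were 1.45, 26.5 and 0.456 CPM, and without number 4 the blocked estimates were -2.10, -0.54 and -1.97 for Phgdh, Psat1 and Cth. This is the library with the most stromal and osteoclast marker RNA, whose part was not tested. Without number 4 the median of the list was -0.29, with 5 that fell and 1 that rose, where 10.4% of all genes fell and 9.82% rose.

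Amino acid transporters and aminoacyl-tRNA synthetases gave a single call. Of 9 transporter genes tested, Slc7a11, the cystine transporter subunit gene, rose by 0.33 (SE 0.07, edgeR adjusted p = 0.0284 with the block), from 520.2 ± 199.5 to 648 ± 219 CPM, and was higher in tdT-positive cells in 4 of 4 numbers. It did not pass when libraries were scaled by totals (adjusted p = 0.113). The median of the transporter list was -0.31, and 0.07 without number 4. None of 13 cytosolic aminoacyl-tRNA synthetase genes passed with the block, where 3 had an unadjusted p under 0.05. All 13 had estimates below 0, where 6200 of the 12610 genes tested did. Since they were measured in the same libraries, these signs do not count as independent. The median of the 13 was -0.15 (-0.05 without number 4, with 9 of 13 below 0). The most abundant per kilobase, Nars and Aars, were at 77.3 and 66.1 RPKM with log2 fold changes of -0.13 and -0.03.

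Of 16 further ATF4 and CHOP target genes, 1 rose and 2 fell, counts near the background of 8.03% and 7.81%. Bcl2l11, which encodes the pro-apoptotic protein BIM, rose by 0.73 (SE 0.09, edgeR adjusted p = 0.00852 with the block), from 55.5 ± 16.8 to 90.4 ± 18.4 CPM. Pmaip1, the gene of the pro-apoptotic protein NOXA, fell by 0.59 (SE 0.13, adjusted p = 0.0246), and Eif4ebp1, which encodes an inhibitor of cap-dependent translation, fell by 0.21 (SE 0.05, adjusted p = 0.0390, or 0.0651 with no filter on low counts). Bbc3, the gene of PUMA, a pro-apoptotic protein of the same class, had an estimate of 0.31 (SE 0.13) and did not pass (adjusted p = 0.15). Fgf21, a hormone gene of the response, was below the filter, as were Cbs and Slc43a1 of the 2 amino acid lists.

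The other arms of the unfolded protein response, led by IRE1 and ATF6, had 3 genes that rose and none that fell among 18, where 8.03% of all genes rose and 7.81% fell. Syvn1, which encodes the ubiquitin ligase of endoplasmic reticulum associated degradation, rose by 0.40 (SE 0.07, edgeR adjusted p = 0.0126 with the block), from 95.3 ± 7.58 to 125 ± 7.88 CPM. Ern1, the gene of IRE1 itself, rose by 0.38 (SE 0.09, adjusted p = 0.0295) and Creld2, an endoplasmic reticulum stress gene, by 0.31 (SE 0.07, adjusted p = 0.0287). The groups did not overlap for Syvn1 and Ern1, and the share of all genes that separate in this direction was not counted. Estimates were above 0 for 17 of 18 genes, with a median of 0.09, where 6410 of all 12610 genes tested were above 0. The genes share the same libraries, so these signs do not count as independent. Scaled by library totals the median was 0.02 with 10 of 18 above 0, and only Syvn1 rose, where 3.35% of all genes tested did.

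**Figure D4:**
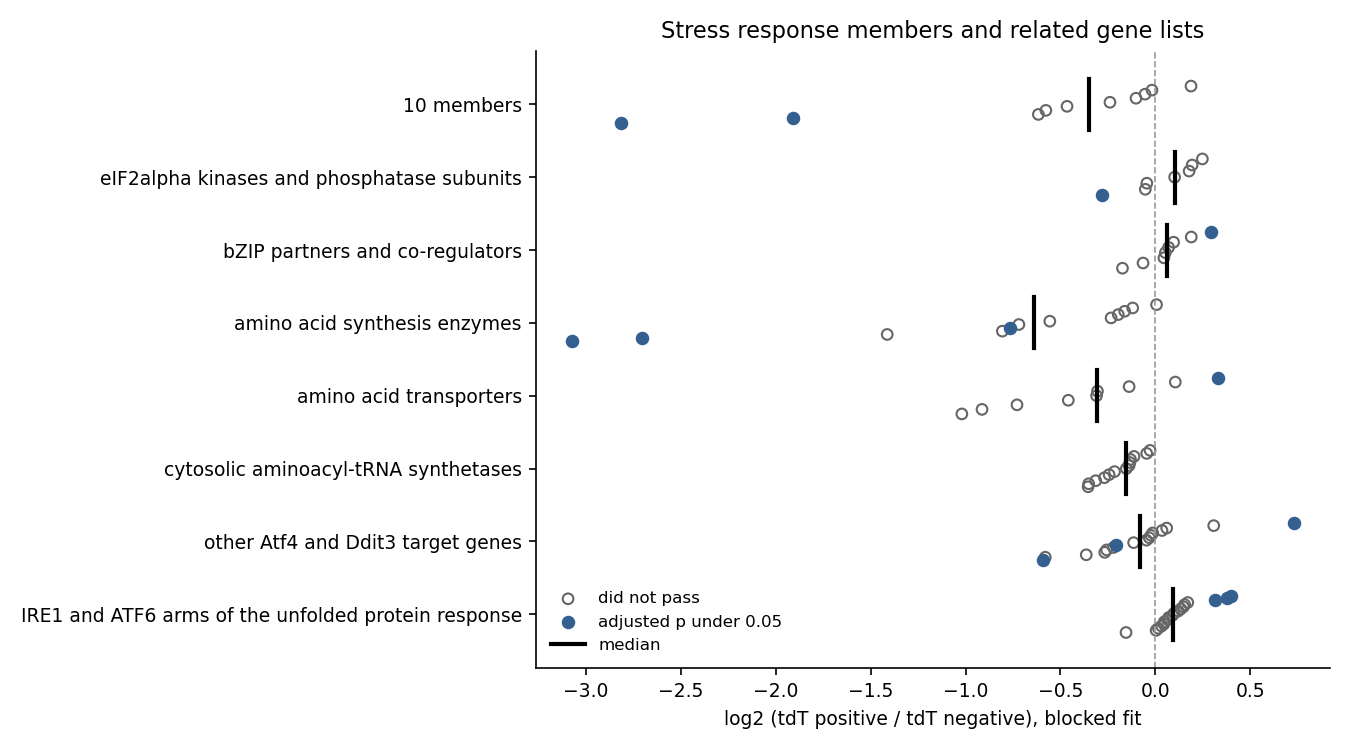
Log2 fold change of tdT-positive over tdT-negative libraries in the blocked edgeR fit (x axis) for the 10 members and the tested genes of 7 related lists (y axis), with filled points for genes that passed an adjusted p under 0.05, open points for those that did not, and a bar at each median. The medians are -0.35 for the members, -0.64 for amino acid synthesis enzymes and 0.09 for the IRE1 and ATF6 arms.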

How the data were processed

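Polyadenylated RNA of 8 libraries, prepared with a stranded kit from 220 ng of RNA each per the labels' protocols, was analysed from the deposited table of whole-number counts per gene made by the authors. The submitters' processing notes name STAR and mm10. The sources used here do not give tool versions, the counting tool or the strand option. Columns were matched through the identifiers that the descriptions carry, and gene lengths are those of the table.

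With edgeR 4.0.16, low genes were removed by filterByExpr (count minimum 10, total minimum 15), libraries were scaled by TMM (trimmed mean of M values), and the group was the only term of the quasi-likelihood test. Standard errors (SE) and intervals were derived from the F statistic. A second fit took the replicate number as a block, and since the numbers pair the libraries its values are printed for the members and for the other genes named. Pairing was taken from the numbers in the titles: deviations from group means correlated by 0.63, 0.28, 0.62 and 0.56 between libraries of numbers 1 to 4, all above 0.1. The labels call the samples biological replicates and do not say whether a number marks a mouse or a day. Libraries of a group differed by a chi-square of at least 54.0 per degree of freedom, so none was a repeat of another. Alternatives used limma 3.58.1 and DESeq2 1.42.0. The fits were tested on simulated data.

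Members and lists were chosen with earlier results of these data known. All members are named, and from each other list up to 4 genes with the smallest p that passed, or the 2 most abundant per kilobase. Fgf21 and the marker genes were named after their values were seen. Promoters are from RefSeq and exons from GENCODE M21.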

Additional observations from a re-analysis of the deposited data

Results flagged for a closer look

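In 3 of the 20 sets formed by the 10 members and 2 groups, 1 library lay far from the other 3 of its group (the gap to the nearest library, divided by the range, exceeded Dixon's 95% critical value for 4 samples), where chance gives about 1 in 20. tdT-negative replicate 4 was high for Vldlr, at 14.5 CPM with the next library at 2.62 CPM, and for Aldh18a1, at 53.2 CPM with the next at 23.1 CPM. tdT-positive replicate 2 was low for Ddit3, at 21.5 CPM with the next at 26.7 CPM. Chac1 in tdT-negative replicate 4, at 10.9 CPM, fell just short of that value.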

How the results depend on the processing

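The number of members, of pathway genes and of all genes that passed (0, 0 and 3 without the block) turned mainly on the replicate block. With the block these were 2, 12 and 1998, with the block and library totals 2, 8 and 1418, with DESeq2 size factors 2, 12 and 1990, with the DESeq2 Wald test 2, 17 and 2504, with limma voom 2, 13 and 2144, without a filter 3, 13 and 2338, and with the counts of Rn45s and Lars2 removed 2, 12 and 2005. With the block and 1 number left out they ranged from 1 to 3, 1 to 17 and 347 to 2535 (1023 and 5 pathway genes without number 1, 347 without number 2, 355 without number 3, 2535 without number 4). Without the block, the DESeq2 Wald test called 6 pathway genes and 921 genes, the absence of a filter gave 216 genes, and leaving out 1 library gave 0 members, 0 to 2 pathway genes and 2 to 456 genes. Vldlr and Stc2 passed in all 7 fits with the block and all numbers, with log2 fold changes from -3.07 to -2.80 and from -1.98 to -1.89, and in 3 of 4 fits with the block and a number left out. These fits reuse the same libraries and are not independent support. Where a filter was used, both genes met it only through the tdT-negative group, so their falls remain description. Estimates near 0 changed sign, and the cause was not tested. With the block and without number 4, Ddit3 was 0.068, Trib3 0.163 and Aars 0.067. Aars was 0.0034 without a filter. Without the block and with 1 library left out, Ddit3 ranged from -0.12 to 0.077 (above 0 without tdT-positive replicate 2, tdT-negative replicate 3 or tdT-negative replicate 4), Trib3 from -0.33 to 0.24 (above 0 without tdT-positive replicate 1 or 2 or tdT-negative replicate 4), and Aars from -0.16 to 0.077 (above 0 without tdT-positive replicate 1, 2 or 4 or tdT-negative replicate 3). Chac1 ranged from -0.90 to 0.055 and Ddit4 from -0.73 to 0.25, both above 0 without tdT-negative replicate 4. The median log2 fold change of all genes was -0.07 with the block and library totals, and 29.8% of calls were then higher, against 50.7% under TMM. Stc2 was below the filter of 1 CPM in at least 4 libraries. At these depths 3 counts are 0.0490 to 0.0696 CPM, close to the level of Stc2 in tdT-positive replicate 1.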
